A study of Mus musculus with 8 samples.

Results

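B cell receptor and B lineage genes are the genes that encode the antigen receptor complex of B lymphocytes, the surface proteins and kinases that work with it, the transcription factors that set B cell identity, and the cytokine receptors on which B cells depend. They were followed here in whole lungs of mice, as a list of 34 genes fixed by name, each represented by its brightest probe set among those with a single gene symbol. Of these, 33 were matched among the 19937 genes measured, each by 1 probe set, and Cd38 was not analysed here. The study compared 4 mice with a stabilized form of beta-catenin and 4 mice with a beta-catenin knockout. All lungs were untreated and taken at postnatal day 21, and the labels call every mouse male and number the mice 1 to 4 within a group as biological replicates. Beta-catenin is the transcriptional effector of canonical Wnt signalling. The sources used here give no Cre line and no altered exons of Ctnnb1, so which lung cells carried the alleles is unknown. With no wild-type lung analysed here, lower in stabilized lungs and higher in knockout lungs are the same statement.

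B cells recognise antigen through a membrane immunoglobulin that has no signalling tail of its own and passes its signal through the Cd79a and Cd79b chains. Kinases of the Src and Syk families, the adaptor Blnk, Btk and the phospholipase Plcg2 then carry the signal to calcium and to gene expression, while co-receptors such as Cr2 raise the response and others such as Cd22 and Cd72 restrain it. Ebf1 and Pax5 commit a progenitor to the lineage, and the BAFF receptor gene Tnfrsf13c serves the survival of mature cells. In mouse lung, B cells are found in blood vessels, in the interstitium and in lymphoid aggregates near the airways, and several of these genes are also used by macrophages, dendritic cells, T cells or stromal cells.

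The arrays carried log2 expression values with medians between 5.97 and 5.98 in stabilized lungs and between 6.01 and 6.03 in knockout lungs. Every stabilized median thus lay slightly below every knockout median. The correlation between arrays of a group, over all genes, was 0.993 to 0.996. The lung epithelial genes Sftpc and Scgb1a1, of alveolar type 2 cells and club cells, averaged 13.22 and 12.38 in stabilized lungs and 13.18 and 12.89 in knockout lungs, near the array maxima of 13.4 to 13.7. The recorded sex was not borne out in 4 of the 8 arrays: Xist, the RNA that coats the inactive X chromosome of female cells, lay between 10.36 and 10.59 in stabilized replicates 1 and 4 and in replicates 1 and 3 of the knockout group, and between 4.18 and 4.62 elsewhere. Both patterns occurred in 2 arrays of each group, and the main results are given with all arrays and for each pattern. In whole-lung RNA, fewer B cells and less RNA per B cell cannot be told apart.

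Most B lineage genes were lower in stabilized lungs. Of the 33 measured, 27 fell, 0 rose and 6 stayed short of the threshold (limma, p adjusted over all genes by Benjamini-Hochberg, under 0.05). Over all genes 4.96% were lower and 4.65% were higher by this rule. In 27 of the 33 every stabilized array lay below every knockout array, an arrangement found in 7.82% of all genes. The median difference, stabilized minus knockout, was -0.80 on the log2 scale over the 33 genes and -0.01 over all genes, with a range of -1.91 for Ms4a1 to 0.19 for Tnfrsf17. With each array centred on its median, 826 genes were lower and 1495 higher, against 989 and 928 without centring, and 24 B lineage genes were lower and 0 higher. Of the 74 genes in the series that were lower by at least 1 on the log2 scale and passed the test (0.371% of all), 9 were B lineage genes.

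**Figure D1:**
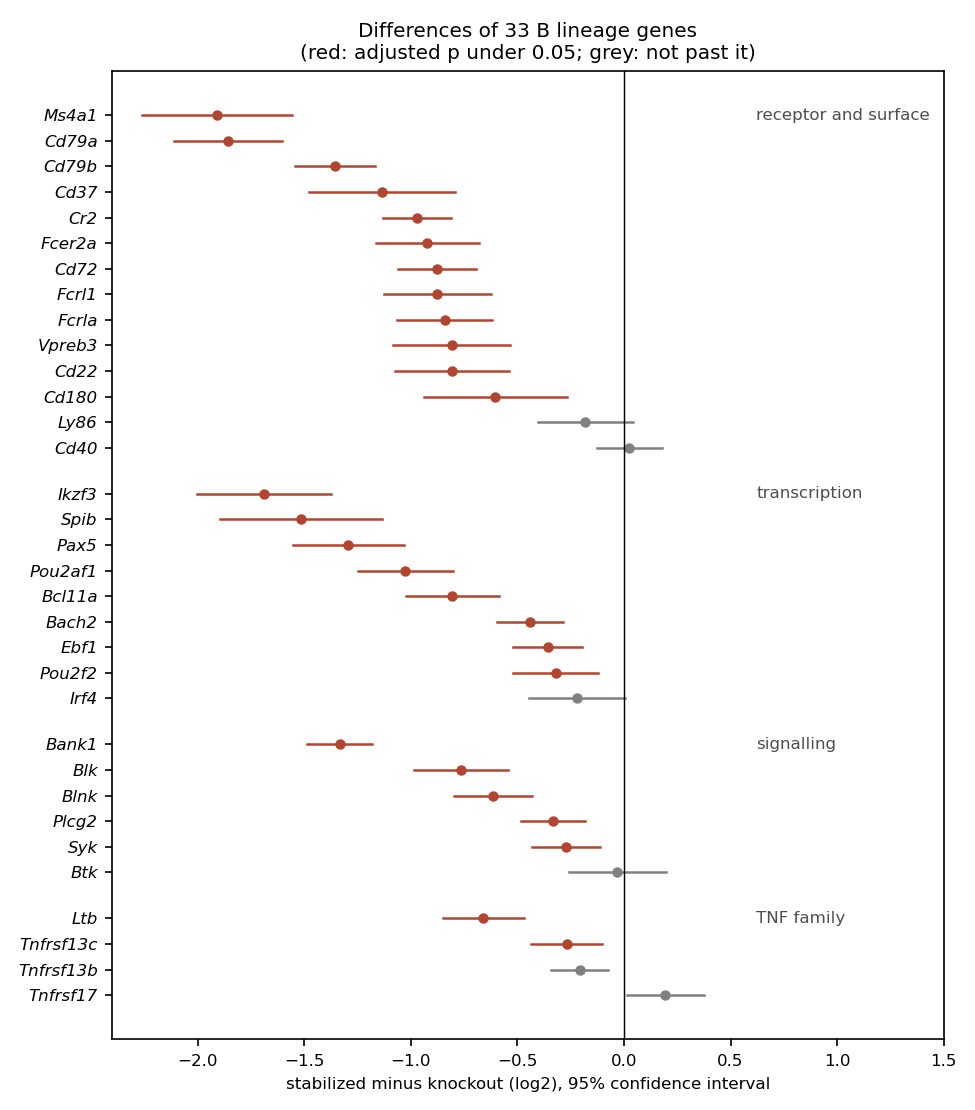
Difference in log2 expression, stabilized minus knockout, of the 33 B lineage genes (points) with 95% confidence intervals (lines), grouped by role on the vertical axis. The 27 genes in red passed an adjusted p of 0.05 and lie left of 0, from -1.91 for Ms4a1 to -0.27 for Tnfrsf13c, and the 6 in grey did not pass.

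The signalling chains of the receptor were among the most lowered genes. Cd79a, the first of the chains, lay at 5.51, 5.48, 5.54 and 5.07 in the stabilized lungs, in the order of replicates 1 to 4, and at 7.31, 7.50, 7.04 and 7.17 in the knockout lungs, a listing kept for the genes that follow. No stabilized array came within 1.5 of the lowest knockout array, although stabilized replicate 4 was below the others of its group. The difference was -1.86 ± 0.12 (SE, n = 4 per group, limma adjusted p = 2.28e-06), or 3.62-fold. Cd79b, its partner, lay at 6.21, 6.31, 6.31 and 6.33 in stabilized lungs, the tightest of the surface genes, and at 7.78, 7.62, 7.78 and 7.39 in knockout lungs. It fell by 1.35 ± 0.09 (SE, limma adjusted p = 2.51e-06). Ordered by difference, Cd79a ranked 8 from the lowest and Cd79b ranked 31 among 19937 genes.

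Further B cell genes, most of them for surface molecules, were lower alongside the receptor chains. Ms4a1, which encodes the pan-B marker CD20, lay at 5.18, 5.12, 5.34 and 5.08 in stabilized lungs and at 7.43, 6.98, 7.41 and 6.54 in knockout lungs. The knockout values were spread over 0.89, with replicates 1 and 3 high and replicate 4 low, and still did not overlap with the stabilized ones (difference -1.91 ± 0.16, SE, limma adjusted p = 1.76e-05). Cr2, the complement receptor that works with the B cell receptor, lay at 4.47, 4.28, 4.38 and 4.33 in stabilized lungs and at 5.24, 5.46, 5.41 and 5.23 in knockout lungs. Its groups were tight and separate, and it fell by 0.97 ± 0.07 (SE). Fcer2a, the low-affinity IgE receptor CD23 of follicular B cells, fell by 0.92 ± 0.11, and the tetraspanin gene Cd37 fell by 1.14 ± 0.16 (SE). The inhibitory co-receptor genes Cd22 and Cd72 fell by 0.81 ± 0.12 and 0.88 ± 0.08, and the Fc receptor-like genes Fcrl1 and Fcrla by 0.87 ± 0.12 and 0.84 ± 0.10 (SE). Vpreb3, a chaperone-like protein of the immature receptor, fell by 0.81 ± 0.13 (SE), with stabilized replicate 3 at 5.82 above the other stabilized values of 5.27 to 5.32.

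Cd180, Ly86 and Cd40, which myeloid cells also carry, differed less. Cd180, a Toll-like receptor homologue of B cells, macrophages and dendritic cells, averaged 6.26 ± 0.18 in stabilized lungs and 6.86 ± 0.37 in knockout lungs (SD, n = 4), with stabilized replicate 1 (6.42) above knockout replicate 4 (6.33). Its call (-0.60 ± 0.16, SE, limma adjusted p = 0.0294) did not hold in 5 of 8 refits with a single array removed (adjusted p up to 0.0853). Ly86, which encodes the MD-1 partner of Cd180, differed by -0.18 ± 0.10 (SE, limma adjusted p = 0.309). Cd40, the receptor for T cell help that dendritic, epithelial and endothelial cells also carry, lay at 7.13, 7.26, 7.16 and 7.13 in stabilized lungs and at 7.22, 7.24, 7.11 and 6.99 in knockout lungs. These groups overlapped throughout, and the 95% confidence interval of the difference ran from -0.13 to 0.18, which leaves out a change of the size seen for Cd79a.

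**Figure D2:**
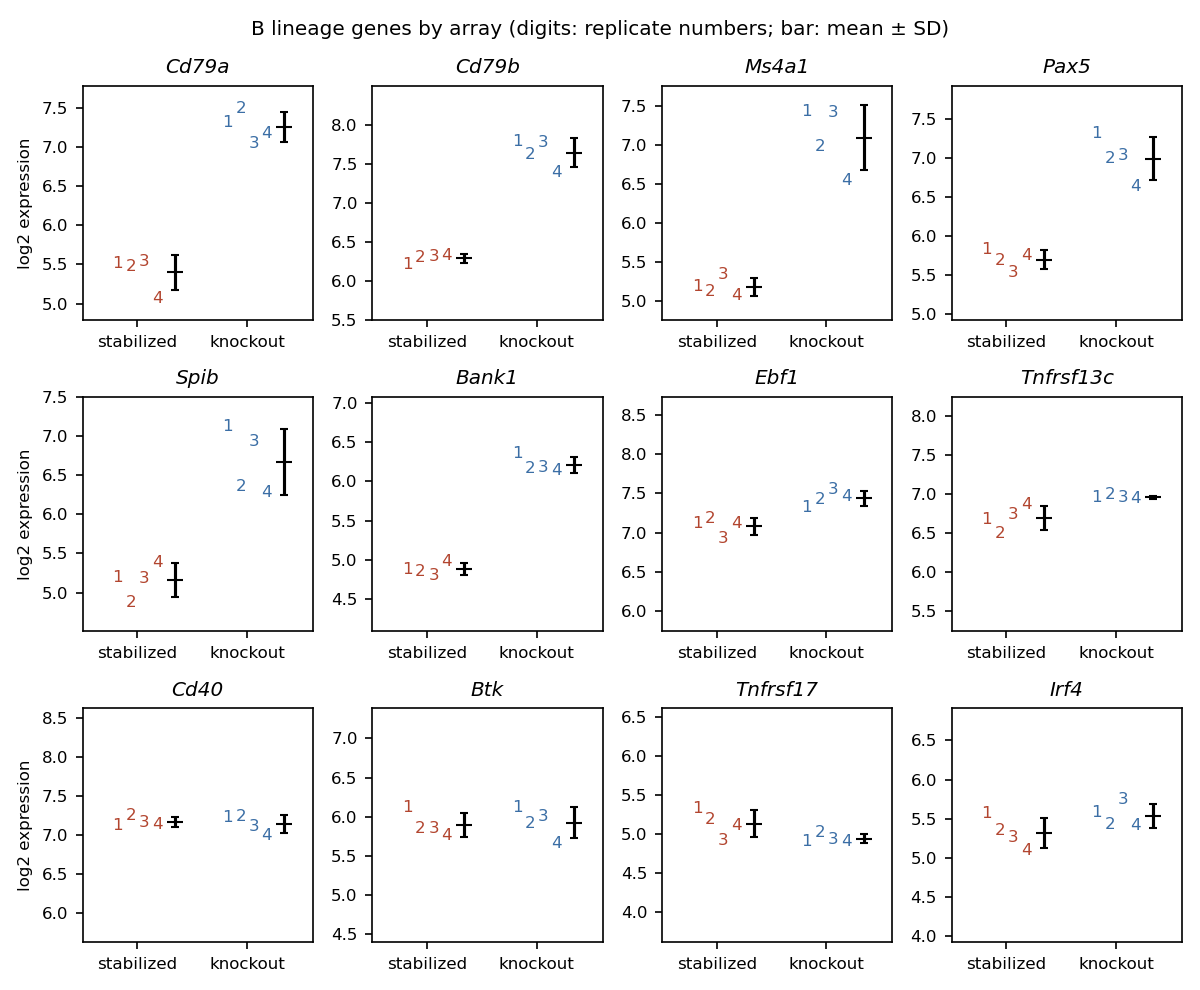
Log2 expression of 12 B lineage genes on each array, with stabilized lungs in red on the left and knockout lungs in blue on the right of each panel; digits are replicate numbers and the black bar is the mean ± SD (n = 4). Each panel spans 3 log2 units: Cd79a, Ms4a1, Spib and Bank1 show separate groups, and Cd40, Btk, Tnfrsf17 and Irf4 show overlapping ones.

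Of the 6 genes that relay the receptor signal, 5 fell, and Bank1, Blk and Blnk showed the largest differences. Bank1, a scaffold that joins the receptor to calcium release, lay at 4.87, 4.85, 4.80 and 4.98 in stabilized lungs and at 6.36, 6.16, 6.18 and 6.14 in knockout lungs. Both groups were narrow, so that its difference of -1.33 ± 0.07 (SE) had the third smallest p of all genes (limma adjusted p = 1.28e-06). Blk, a Src family kinase of B cells, fell by 0.76 ± 0.10, and Blnk, the adaptor that Syk phosphorylates, fell by 0.61 ± 0.08 (SE). Plcg2 and Syk, which many blood cells use, fell by 0.33 ± 0.07 and 0.27 ± 0.07 (SE, limma adjusted p = 0.00911 and 0.0375). The call of Syk did not hold in 5 of 8 such refits (adjusted p up to 0.112). Btk, the Tec family kinase of B cells and myeloid cells, lay at 6.12, 5.85, 5.85 and 5.75 in stabilized lungs and at 6.12, 5.91, 5.996 and 5.66 in knockout lungs. The values of Btk ran through the same range in both groups, with a confidence interval of the difference from -0.26 to 0.20, and the sign of its difference flipped after repeated quantile normalization or median centring.

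Transcription factors of the lineage were lower in 8 of 9 cases. Ikzf3, which encodes the lymphoid zinc finger protein Aiolos and is also used by T cells, fell by 1.69 ± 0.14 (SE). Spib, an Ets factor of B cells and plasmacytoid dendritic cells, lay at 5.19, 4.87, 5.19 and 5.39 in stabilized lungs and at 7.13, 6.35, 6.93 and 6.28 in knockout lungs, where replicates 1 and 3 were high (difference -1.51 ± 0.17, SE, limma adjusted p = 1.73e-04). Pax5, the commitment factor of the lineage, lay at 5.83, 5.68, 5.54 and 5.76 in stabilized lungs and at 7.31, 6.997, 7.03 and 6.63 in knockout lungs. The groups of Pax5 stood 0.81 apart at their nearest, and it fell by 1.29 ± 0.12 (SE, limma adjusted p = 3.43e-05). Pou2af1, the octamer coactivator OBF-1, fell by 1.03 ± 0.10, and Bcl11a, a zinc finger factor of B cells and plasmacytoid dendritic cells, fell by 0.80 ± 0.10 (SE).

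The remaining factors differed by under 0.5 on the log2 scale. Bach2, which holds back plasma cell formation and is also used by T cells, fell by 0.44 ± 0.07 (SE, limma adjusted p = 0.00198). Ebf1, the pioneer factor of the lineage that adipocytes and perivascular stromal cells also express, lay at 7.11, 7.18, 6.92 and 7.11 in stabilized lungs and at 7.32, 7.43, 7.55 and 7.46 in knockout lungs. Its groups did not overlap, and it fell by 0.36 ± 0.07 (SE, limma adjusted p = 0.00954). Pou2f2, which encodes Oct-2, fell by 0.32 ± 0.09 (SE, limma adjusted p = 0.0481), but its highest stabilized value and its lowest knockout value were both 5.95, and its call did not hold in 7 of 8 such refits (adjusted p up to 0.13). Irf4, a factor of activated B cells and plasma cells, differed by -0.22 ± 0.10 (SE, limma adjusted p = 0.218), with overlapping groups.

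Promoter sequence was examined for the sites of factors named above, since Ebf1 binds CCCNNGGG and Oct-2 with OBF-1 binds the octamer ATGCAAAT. Promoters from 250 bases before to 50 bases after a start site were taken from RefSeq (GRCm38.p6), which held 28 of the 33 genes. On either strand the octamer was present in 2 of the 28 genes (7.14%) and in 1.97% of all genes, and the Ebf1 motif in 3 of the 28 (10.7%) and in 15.4% of all genes. Of these 5 genes, the 4 with the largest differences are shown. Motif letters are in capitals, and each sequence runs 5′ to 3′ on the strand of its gene. Whether the motifs bear on the differences was not tested. The Spib promoter (chr7:44532022-44532321, minus strand) has overlapping Ebf1 matches that begin 65 and 64 bases before the start site, and the match of Bank1 (chr3:136326017-136326316, minus strand) begins 21 bases before it. The Ebf1 match of Cd22 (chr7:30878979-30879278, minus strand) begins 48 bases before its start site. In Vpreb3 (chr10:75948050-75948349, plus strand) the octamer lies in reverse orientation, 45 bases before the start site.
Spib: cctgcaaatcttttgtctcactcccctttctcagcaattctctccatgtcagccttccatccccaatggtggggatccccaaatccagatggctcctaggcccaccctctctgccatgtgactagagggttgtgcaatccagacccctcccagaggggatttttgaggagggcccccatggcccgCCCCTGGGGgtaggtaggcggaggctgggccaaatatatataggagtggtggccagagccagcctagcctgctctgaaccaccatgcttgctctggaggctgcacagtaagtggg
Bank1: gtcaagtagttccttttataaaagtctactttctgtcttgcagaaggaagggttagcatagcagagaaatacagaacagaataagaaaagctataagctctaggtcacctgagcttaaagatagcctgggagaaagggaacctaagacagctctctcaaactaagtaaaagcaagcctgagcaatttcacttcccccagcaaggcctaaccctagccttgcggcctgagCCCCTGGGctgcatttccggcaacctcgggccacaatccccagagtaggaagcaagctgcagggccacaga
Cd22: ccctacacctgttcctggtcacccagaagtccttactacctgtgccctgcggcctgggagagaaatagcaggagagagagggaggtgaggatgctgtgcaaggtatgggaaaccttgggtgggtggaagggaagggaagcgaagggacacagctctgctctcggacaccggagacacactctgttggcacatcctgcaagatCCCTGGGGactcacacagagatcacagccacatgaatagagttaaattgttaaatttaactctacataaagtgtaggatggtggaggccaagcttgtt
Vpreb3: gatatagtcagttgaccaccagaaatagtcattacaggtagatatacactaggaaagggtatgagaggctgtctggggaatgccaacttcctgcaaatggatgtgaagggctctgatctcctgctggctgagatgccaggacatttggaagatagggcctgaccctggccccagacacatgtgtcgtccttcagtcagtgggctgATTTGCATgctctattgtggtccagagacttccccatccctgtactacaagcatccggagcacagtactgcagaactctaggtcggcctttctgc
The other gene with an octamer was Blnk. Lowered genes without an exact match to either motif in this window included Cd79a, Pax5 and Cr2. Near matches that differ by a letter were not searched for, so lack of a match is not lack of a site. A match is a description of letters, not of binding.

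Of the TNF superfamily genes among the B lineage genes, lymphotoxin beta showed the largest difference. Ltb, which B and T cells use to organise lymphoid tissue, lay at 6.21, 6.32, 6.49 and 6.41 in stabilized lungs and at 7.21, 6.94, 7.06 and 6.86 in knockout lungs, and fell by 0.66 ± 0.09 (SE, limma adjusted p = 4.76e-04). Tnfrsf13c, the BAFF receptor gene, lay at 6.67, 6.49, 6.73 and 6.86 in stabilized lungs and at 6.96, 6.99, 6.95 and 6.93 in knockout lungs. The groups of Tnfrsf13c were 0.08 apart at their nearest, and its call (-0.27 ± 0.08, SE, limma adjusted p = 0.0465) did not hold in 7 of 8 such refits (adjusted p up to 0.115). Tnfrsf13b, which encodes TACI, a receptor for BAFF and APRIL, had no overlap between groups but did not pass (-0.21 ± 0.06, SE, limma adjusted p = 0.0549). Tnfrsf17, which encodes the plasma cell receptor BCMA, lay at 5.32, 5.18, 4.92 and 5.10 in stabilized lungs and at 4.90, 5.02, 4.93 and 4.90 in knockout lungs. The groups of Tnfrsf17 overlapped, and its difference of 0.19 ± 0.08 (SE, limma adjusted p = 0.173) was the highest of the 33. The gene of the BAFF ligand, Tnfsf13b, differed by -0.20 ± 0.09 (SE, limma adjusted p = 0.181).

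Within the knockout group the B lineage genes varied together. Knockout replicate 4 held the lowest knockout value of 29 of the 33 genes, the exceptions being Cd79a, Ebf1, Blnk and Tnfrsf17, whereas it was lowest in 26.2% of all genes. Only Ebf1 lay above its knockout mean on that array. Replicates 1 and 3 were the 2 highest knockout arrays in 18 of the 33 genes (54.5%), among them Ms4a1, Spib, Ikzf3 and Pax5, against 16.4% of all genes. In 7 genes (Cd79a, Fcer2a, Cd72, Fcrla, Cd40, Plcg2 and Tnfrsf13c) replicates 1 and 2 were the highest instead, and in 7 others replicates 2 and 3. The SD in knockout lungs was at least 0.25 in 7 of the 33 genes (21.2%) and in 3.28% of all genes. With 4 arrays a group, these are descriptions of the arrays, without a test.

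Stabilized lungs showed a looser order. Stabilized replicate 2 was lowest in 15 of the 33 genes (45.5%), but it was also lowest in 38.9% of all genes. Replicates 1 and 3 were the 2 highest in 13 genes (39.4%), against 16.7% of all genes, and Cd79a, Ms4a1, Cr2 and Cd37 were among them. The SD was at least 0.25 in 2 of the 33 genes (6.06%) and in 3.45% of all genes. Averaged over the 33 genes the level was 5.94, 5.83, 5.94 and 5.88 in stabilized lungs and 6.77, 6.67, 6.75 and 6.45 in knockout lungs, so the lowest knockout array stayed above the highest stabilized one.

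**Figure D3:**
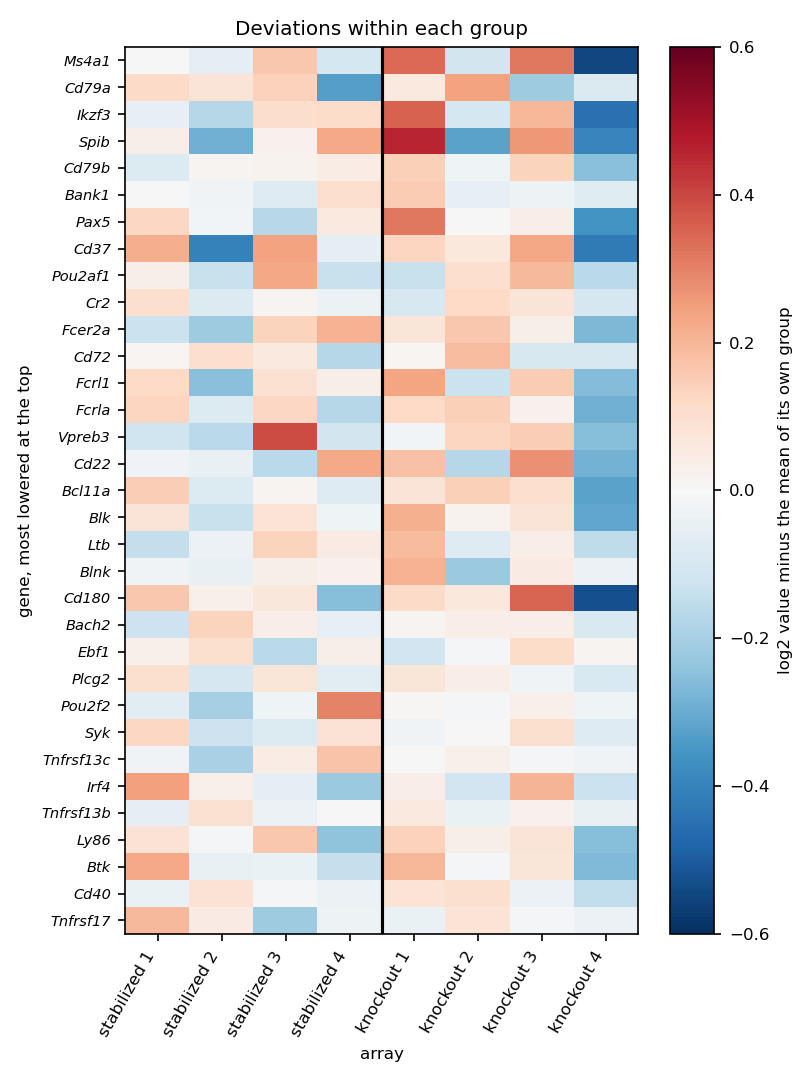
Log2 value minus the mean of its own group for the 33 B lineage genes (rows, most lowered at the top) on each array (columns, stabilized left of the line and knockout right of it). Blue fills most of the column of knockout replicate 4, which was lowest in 29 genes, and no stabilized column is as uniform.

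The order of the knockout arrays was shared by other leukocyte genes. The mean of 10 pan-leukocyte genes was 8.30, 8.17, 8.41 and 8.33 in stabilized lungs and 9.07, 8.73, 8.93 and 8.53 in knockout lungs. Knockout replicate 4 was lowest for all 10 of them and for 12 of 15 T cell markers, beside 26.2% of all genes. It was also lowest for 9 of 14 macrophage and monocyte markers and for 6 of 11 dendritic cell markers. Knockout replicate 1 was highest for all 15 T cell markers and for 14 of the 33 B lineage genes, beside 29.1% of all genes. Knockout replicates 1 and 3 were also the arrays of that group with high Xist, and the part of this pattern in the order was not tested. Leaving out knockout replicate 4 gave 25 lowered B lineage genes, against 4.73% lowered over all genes in that fit.

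Both Xist patterns showed the difference. On the 4 arrays whose sex-linked genes went with the label, 2 per group, 15 of the 33 genes were lower (limma adjusted p under 0.05, against 1.16% of all genes), and on the 4 arrays that went against it 22 were lower (against 2.27%). All 27 genes lowered with all arrays had a negative difference in either pattern. Cd79a differed by -1.83 with the label and -1.89 against it, Bank1 by -1.32 and -1.34, and Cr2 by -1.02 and -0.93. Ms4a1 and Ikzf3 differed by -1.53 and -1.44 with the label and by -2.29 and -1.93 against it. Cd180 differed by -0.32 with the label and by -0.88 against it. Whether the differences themselves varied with the pattern was not tested.

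Most other genes of the receptor pathway did not pass the test. Of 21 partners of the B cell receptor pathway, 4 fell, 1 rose and 16 did not pass, with a median of -0.12. Over all genes 4.96% were lower and 4.65% were higher. In 6 of the 21 every stabilized array lay below every knockout array, beside 7.82% of all genes. Prkcb, the protein kinase C that links the receptor to NF-kappaB, fell by 0.79 ± 0.11, the PI3-kinase subunit gene Pik3cd and its adaptor gene Pik3ap1 fell by 0.48 ± 0.08 and 0.42 ± 0.08, and the NF-kappaB subunit gene Rel fell by 0.30 ± 0.09 (SE). Vav2, an exchange factor found in many tissues, rose by 0.31 ± 0.07 (SE). Without knockout replicate 4, 7 of these partners fell.

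Of 25 listed symbols of immunoglobulin chain and plasma cell genes, 13 were measured. The other 12 symbols, most of them immunoglobulin chains, were not matched. They include Igj, an older symbol of the measured gene Jchain. Of the 13, 4 fell, 0 rose and 9 did not pass, with a median of -0.13, beside 4.96% of all genes lower. In 4 of the 13 every stabilized array lay below every knockout array, beside 7.82% of all genes. Igha, the IgA heavy chain gene, lay at 6.76, 6.04, 6.21 and 6.85 in stabilized lungs and at 7.52, 7.46, 7.44 and 7.01 in knockout lungs, and fell by 0.89 ± 0.17 (SE, limma adjusted p = 0.00587). Slamf7, which plasma cells and NK cells carry, fell by 1.25 ± 0.14, Cd28, which T cells also carry, fell by 0.60 ± 0.11, and the antibody assembly gene Mzb1 fell by 0.36 ± 0.09 (SE). Ighm, the IgM heavy chain gene, lay at 6.42, 6.20, 6.29 and 6.27 in stabilized lungs and at 6.46, 6.39, 6.26 and 6.08 in knockout lungs. The groups of Ighm overlapped fully, with a confidence interval of the difference from -0.19 to 0.19, beside a Cd79a difference of -1.86. Jchain, which joins antibody multimers, lay at 5.32, 5.35, 4.59 and 4.36 in stabilized lungs and at 4.71, 4.74, 4.29 and 4.30 in knockout lungs (difference 0.39 ± 0.20, SE, limma adjusted p = 0.263). Immunoglobulin genes share sequence, and probe sets may not tell them apart.

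Of 17 early B cell genes 4 fell, 0 rose and 13 did not pass (median -0.14), beside 4.96% of all genes lower. In 6 of the 17 every stabilized array lay below every knockout array, beside 7.82% of all genes, and those that fell are also used outside the B lineage: the interleukin-7 receptor gene Il7r (-1.43 ± 0.11, SE), Ikzf1 (-0.85 ± 0.14), Lef1 (-0.76 ± 0.10) and the cytokine receptor gene Flt3 (-0.49 ± 0.08). The genes of receptor gene assembly (Rag1, Rag2 and Dntt) and of the surrogate light chain (Vpreb1, Vpreb2 and Igll1) did not pass. They were named after their values were seen and differed by -0.20 (Vpreb2) to -0.05 (Vpreb1). Rag2, Dntt and Rag1 averaged 3.16, 4.22 and 4.78 over all arrays, dim values at which a decrease may not show. Of 10 germinal centre genes 0 passed by limma, 3 of them at an unadjusted p under 0.05. Among 18 ligand and follicle genes 3 fell and 1 rose. The follicle-homing receptor gene Cxcr5 fell by 0.67 ± 0.11, Ccr7 and Cxcr4 fell by 1.01 ± 0.11 and 0.60 ± 0.09, and Cxcl13, the ligand of the Cxcr5 product, rose by 0.66 ± 0.12 (SE).

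Among other cell types the direction varied. T cell markers were lower in 13 of 15 cases (median -0.63), with the smallest p for Cd8a, Cd8b1, Lat, Cd3g and Cd3e (-1.59 to -0.85), and 9 of 10 pan-leukocyte genes were lower (median -0.49), among them Ptprc, which encodes CD45 (-0.48 ± 0.12, SE). Without stabilized replicate 2 only 5 pan-leukocyte genes passed, and without knockout replicate 3 only 2. Of 14 macrophage and monocyte markers 4 were higher, 0 were lower and 10 did not pass (median 0.24). Over all genes 4.96% were lower and 4.65% were higher. The complement genes C1qa and C1qb rose by 0.59 ± 0.08 and 0.45 ± 0.08 (SE). Mrc1 rose by 0.43 ± 0.09 and Lyz2 by 0.21 ± 0.06 (SE). Differences were negative for 2 of the 14, Siglecf (-0.18) and Marco (-0.15), and neither passed. Of 11 dendritic cell markers 4 fell and 2 rose: Clec9a, Ccl22, Flt3 and Ccr9 fell by 0.40 to 0.84, and Clec10a and Clec4a2 rose by 0.36 and 0.33. These dendritic cell counts changed with single arrays, to 2 to 5 lower and 0 to 1 higher. Of 12 stromal, vessel and adipose markers Rgs5, Tcf21 and Pdgfra rose, by 1.65, 0.64 and 0.33, and Actn2 fell by 0.45. Of 10 lung epithelial markers Lamp3 and Epcam rose and Foxj1 and Scgb1a1 fell. The part of these cell types in the differences of shared genes such as Ebf1, Btk and Cd40 was not tested.

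**Figure D4:**
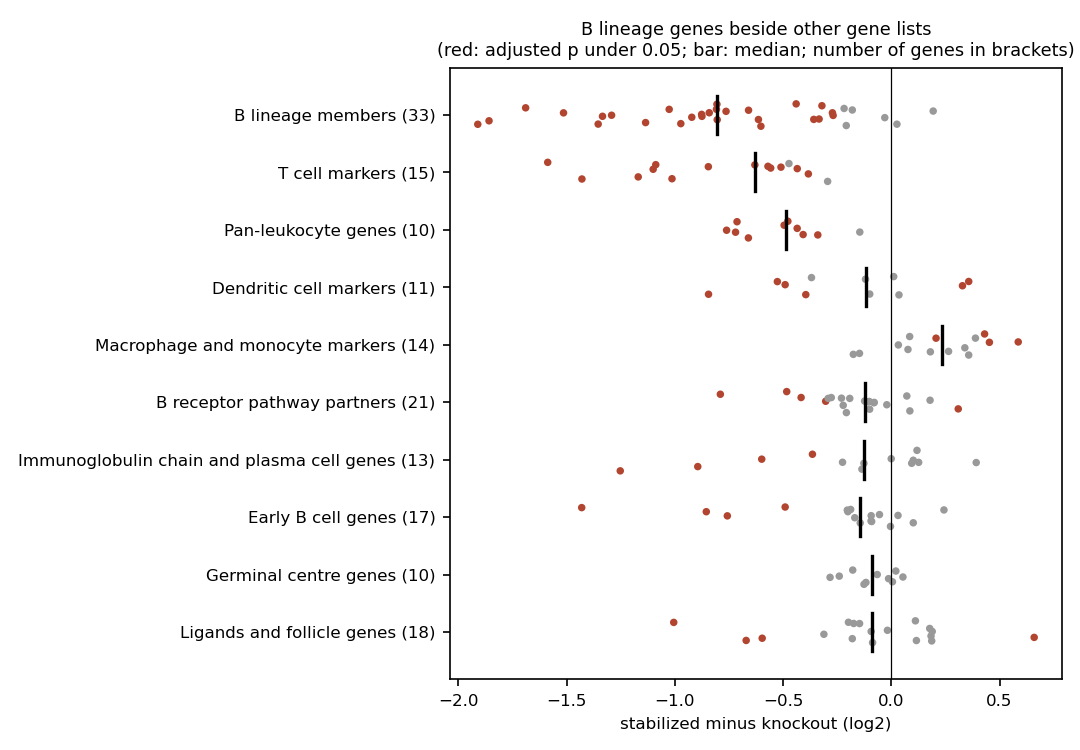
Difference in log2 expression, stabilized minus knockout, of each gene (points, red where the adjusted p was under 0.05) in the 33 B lineage genes and 9 other lists, with the median as a bar. The B lineage genes have a median of -0.80 and T cell markers of -0.63, while macrophage and monocyte markers have a median of 0.24.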

How the data were processed

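RNA of whole lungs was measured on 8 Affymetrix arrays, 1 per mouse. Column-purified RNA was labelled with biotin as cRNA, per the labels' protocols. The submitters' processing notes name RMA and affy without versions. The deposited table holds log2 values for 34760 probe sets, of which 21640 had 1 gene symbol in the platform annotation, 1321 had several and 11799 had none listed. RMA applies quantile normalization by its usual definition, which would hide a change in total RNA, and remaining background shrinks the differences of dim genes. Arrays carry no read depth, and their number limits the precision.

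From these values the brightest probe set of each gene was kept, giving 19937 genes. Stabilized minus knockout was fitted with limma 3.58.1 (R 4.3.3; lmFit, eBayes) on all 8 arrays without covariates or a filter, with 12.2 degrees of freedom in all and Benjamini-Hochberg adjustment over all genes, at a threshold of 0.05. Errors are limma's SE of a difference or the SD of a group, and p-values measure only the spread between these mice. Simulated data for this comparison covered 19937 genes. In them limma recovered 83 of 100 genes shifted by 0.5 (log2) and 99 of 100 shifted by 1. It also called 15 unshifted genes. Each simulated gene was drawn independently with normal noise and 200 genes were shifted, while 1917 genes passed in the measured data. These rates may differ where more genes change or genes vary together.

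The members and lists were chosen with earlier results of these data known. Named genes were all members, up to 5 called genes with the smallest p in each other list, and a few genes fixed by name. Alternatives changed the normalization, filter, probe set choice, prior, arrays, Xist covariate and replicate block. Protein sequences were not used here.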

Additional observations from a re-analysis of the deposited data

Results flagged for a closer look

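In groups of 4 arrays, the gap from the lowest or highest array to its nearest neighbour was compared with the whole range of the group, and 3 of the 66 groups tested (33 genes in each of the genotypes) had an array standing apart beyond Dixon's 95% critical value. Chance flags about 1 in 20 groups, so this number is near that rate. Cd79a was at 5.07 in stabilized replicate 4, with the next value at 5.48 (gap over range 0.865). Vpreb3 was at 5.82 in stabilized replicate 3, with the next value at 5.32 (gap over range 0.91). Bcl11a was at 6.44 in knockout replicate 4, with the next value at 6.83 (gap over range 0.85). Each of these genes was lower in stabilized lungs whichever single array was removed.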

How the results depend on the processing

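Of 559 differences of single members recomputed under the alternatives, 498 kept their direction and their side of the threshold, 50 lost a call, 2 gained one and 9 changed sign. All sign changes were in genes that did not pass: Cd40 (-0.037 on arrays against the labelled sex, and -0.023 to 0.058 with 1 array left out), Ly86 (0.0045 on arrays with the labelled sex) and Btk (0.0051 after repeated quantile normalization, 0.0068 after median centring, 0.062 on arrays with the labelled sex, and -0.12 to 0.036 with 1 array left out). Of the 27 lowered members, 23 passed whichever single array was removed. With the replicate number as a block, 24 of them passed; the deviations of same-numbered arrays correlated at -0.01 to 0.08 and 1 of 4 stabilized arrays correlated best with its own number, so the numbers were not taken to pair the mice. Under that replicate block 1 immunoglobulin or plasma cell gene was higher and 2 stromal markers were lower.

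On the 4 arrays with the labelled sex, 354 genes were called (232 lower, 122 higher) and 15 members were lower, with a median of -0.64. There the lower counts were 0 for pathway partners, dendritic, pan-leukocyte and stromal genes, 1 for follicle and lung epithelial genes, 2 for immunoglobulin and early B cell genes and 3 for T cell markers, and the higher counts were 0 for partners and dendritic genes, 1 for epithelial and stromal genes and 2 for macrophage genes. On the 4 arrays against it, 670 genes were called (452 lower, 218 higher), with lower counts of 1 for partners and epithelial genes and 2 for dendritic and stromal genes, and higher counts of 0 for partners, dendritic, follicle and epithelial genes and 2 for macrophage genes. These fits hold 2 arrays a group, fewer than the 4 above. Median centring gave 1495 higher genes and 2 higher partners. Leaving out genes with a mean under 5 gave 7 lower partners and 1 higher dendritic gene, a trended robust prior gave 7 lower and 2 higher partners and 2 lower stromal genes, and Xist as a covariate gave 2 lower stromal genes. The cause of these shifts was not tested. Leaving out 1 array gave 1216 (without stabilized replicate 1; 1235 without knockout replicate 3) to 1839 called genes, with 503 to 882 higher (519 without knockout replicate 3), 23 to 26 lower members, 3 to 7 lower partners, 0 to 1 higher early B cell genes, 0 to 1 lower germinal centre genes, 1 to 2 higher follicle genes, 2 to 5 lower and 0 to 1 higher dendritic genes, 2 to 9 lower pan-leukocyte genes and 1 to 2 lower stromal genes. Dim probe sets limit what can be seen of genes near background.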
